A study of Homo sapiens with 6 samples.

Results

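Guidance genes, the semaphorins, neuropilins, plexins, ephrins, Eph receptors, slits, robos, netrins and UNC5 receptors, were followed through a knockdown of gankyrin in SW480 cells, a line established from a human colon carcinoma. Gankyrin, encoded by PSMD10, is an ankyrin-repeat protein that helps to assemble the regulatory particle of the proteasome. The gankyrin shRNA group (SW480-shGankyrin) held 3 arrays of cells infected with a short hairpin RNA against gankyrin, and the control shRNA group (SW480-shcontrol) held 3 arrays of cells given a non-targeting hairpin, each for 4 days. All 6 were one-colour Affymetrix arrays of total RNA, and both groups grew in DMEM with fetal bovine serum and had no other treatment. The labels do not name the vector or the number of hairpins or clones. They also do not say that replicates were separate cultures, so each p-value below reflects how these arrays scatter, which could be technical scatter alone. Members were taken by symbol: names starting with SEMA and a digit, PLXN, EPHA, EPHB, EFNA, EFNB, ROBO or UNC5, without antisense genes, plus NRP1, NRP2, SLIT1, SLIT2, SLIT3, NTN1 and NTN4. The prefix also takes in UNC5CL, a death-domain protein, and UNC50, a membrane protein unrelated to netrin receptors. Of 68 such protein-coding genes 67 had a probe set paired with a single gene, and EPHB2 was not analysed here. Taking for each gene its brightest probe set, with a mean log2 signal over the 6 arrays above 3.6, left 55 of these 67 among 14199 genes in all. ROBO2, at a mean of 3.67, was the nearest gene inside that minimum, and SEMA3B, at 3.52, the nearest outside. The other genes outside it were EPHA3, EPHA6, EPHA7, EPHB1, NTN1, PLXNA4, ROBO1, SEMA3D, SLIT2, UNC5C and UNC5D, with means of 1.98 to 3.38.

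These proteins were named for steering growing axons, and the same ligands and receptors act in vessels and epithelia. Class 3 semaphorins are secreted and bind neuropilins, which pass the signal on through plexin-A receptors, whereas most membrane-bound semaphorins bind plexins directly. Neuropilin-1 also binds vascular endothelial growth factor. Ephrins stay on the cell surface, ephrin-A ligands by a lipid anchor and ephrin-B ligands by a transmembrane segment, and activate Eph receptor tyrosine kinases on neighbouring cells. In the intestinal crypt, EphB receptors and ephrin-B ligands are known for sorting cells by position. Netrins signal through DCC and UNC5 receptors, and slits through robo receptors.

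PSMD10 matched the labels on every array, with log2 signals of 6.58, 6.47 and 6.30 on gankyrin shRNA arrays, against 10.19, 10.23 and 10.15 on control arrays (-3.74 ± 0.08 SE, limma adjusted p = 6.81e-09). The design text names NFIL3 as the knockdown target in one place, and NFIL3 averaged 9.07 ± 0.05 on gankyrin shRNA and 9.33 ± 0.13 on control arrays (SD, n = 3 each), a fall of 0.26 ± 0.07 (limma adjusted p = 0.0281). Control replicate 3 stood apart. The SD of its deviations from the control mean over all genes was 0.163, against 0.0865 to 0.0917 on the gankyrin shRNA arrays and 0.106 to 0.112 on the other control arrays. It lay more than 0.3 from its group's median for 9 of the 55 guidance genes, against 0 to 2 genes on the other arrays. The epithelial genes KRT18, at 12.99 ± 0.03 on gankyrin shRNA and 13.05 ± 0.08 on control arrays, and EPCAM, at 12.20 ± 0.08 on gankyrin shRNA and 12.20 ± 0.03 on control arrays, were high in both groups (SD, n = 3 each). Of 12 markers of colon epithelium, all measured, 3 fell, KRT20 by 0.66, CDH1 by 0.64 and KRT19 by 0.46, and 2 rose, VIL1 by 0.82 and LGR5 by 0.42. That is 41.7% called, in a list too short to set against the 22.5% of all genes called. The linear signals of the 12 markers summed to 17322 to 17804 on gankyrin shRNA and 18388 to 19041 on control arrays. The part of this sum in the results was not tested. CDX2, CDH17 and GPA33 were below 4.92, the 95th percentile of the means of olfactory receptor probe sets, used here as the low end of the scale.

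Most guidance genes that passed the test were lower after gankyrin knockdown. Of the 55 measured, 17 fell, 1 rose and 37 did not pass at a limma adjusted p under 0.05. That is 30.9% falling and 32.7% called, against 14.3% falling, 8.13% rising and 22.5% called among all 14199 genes. Guidance genes had a median log2 fold change of -0.10, and all genes one of -0.02. Gankyrin shRNA and control arrays were fully separated for 24 guidance genes (43.6%), 21 lower and 3 higher, against 40.3% of all genes (24.6% lower and 15.7% higher), a share near the background. All 18 calls lay among the 40 guidance genes above the low end of the scale, where 42.5% fell and 45% were called, against 17.4% falling, 9.91% rising and 27.4% called among all genes above it. There, 21 of the 40 guidance genes were fully separated, 19 lower and 2 higher, against 47.3% of all genes (29.8% lower and 17.5% higher). In these bulk samples, fewer cells that express a gene and less of its RNA per cell cannot be told apart. An exact two-sided permutation test over the 6 arrays gave p = 0.1 for each called gene, the smallest that 3 against 3 arrays allow.

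The count of calls moved when single arrays were left out, and their split by direction moved with the scale. Without gankyrin shRNA replicate 1, 2 or 3, 11, 11 and 9 guidance genes fell, and without control replicate 3, 19 fell and 2 rose. Of all genes 7.78%, 7.96% and 7.54% fell without those gankyrin shRNA arrays. Without control replicate 3, 16.6% of all genes fell and 12.7% rose. Centring each array on the median of the genes tested, a choice made after seeing the data, moved every log2 fold change up by 0.10. The guidance genes then had a median of 0, with 15 falling and 3 rising, again 18 calls (32.7%). All genes had a median of 0.08, with 10.4% falling, 16% rising and 26.4% called. Of all calls 60.7% were higher, against 36.2% on the deposited scale.

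**Figure D1:**
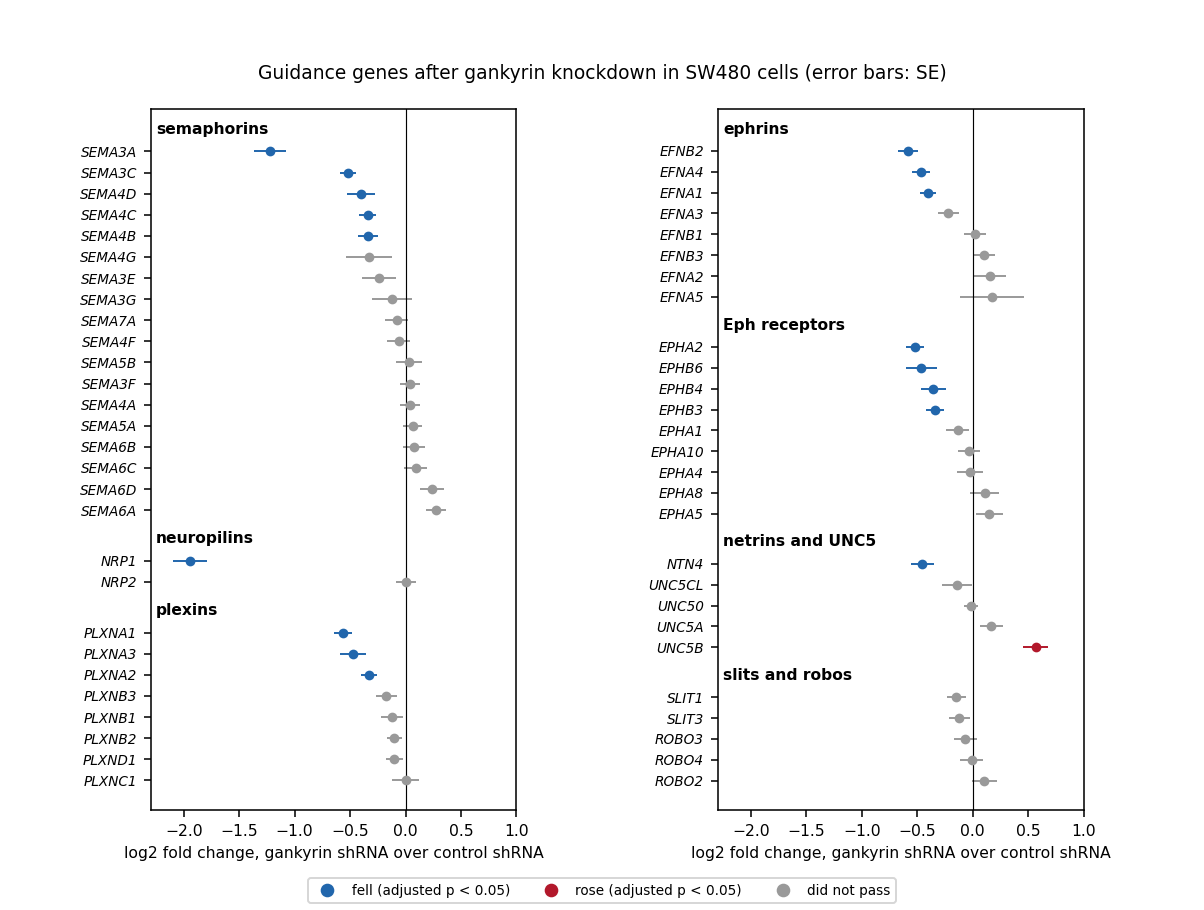
Log2 fold change (gankyrin shRNA over control shRNA, horizontal axis) of the 55 measured guidance genes by family, with bars for the SE of the limma fit (n = 3 arrays per group). NRP1 at -1.94 and SEMA3A at -1.22 lie farthest left among the 17 blue genes that fell, and UNC5B at 0.57 is the single red gene that rose.

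The neuropilins, co-receptors for secreted semaphorins and for vascular endothelial growth factor, had 1 call between them. NRP1 had log2 signals of 5.06, 5.42 and 4.84 on gankyrin shRNA arrays, against 6.82, 7.23 and 7.10 on control arrays. Every gankyrin shRNA array was lower than every control array. NRP1 fell 3.85-fold (-1.94 ± 0.15 SE, limma adjusted p = 3.80e-05). Its second probe set read 4.70, 4.66 and 4.68 on gankyrin shRNA arrays, against 5.77, 5.82 and 5.47 on control arrays, and it fell too, at -1.01 ± 0.11 (limma adjusted p = 0.00359 over all probe sets). The gankyrin shRNA mean of the brighter probe set, 5.11, was close to the low end of the scale at 4.92, and that of the second, 4.68, was below it. NRP2, its paralogue, averaged 5.10 ± 0.06 on gankyrin shRNA and 5.10 ± 0.08 on control arrays (SD, n = 3 each). NRP2 did not pass, at 0.00 ± 0.09 SE (limma adjusted p = 0.986).

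Of 5 measured class 3 semaphorins, the secreted ligands of the neuropilins, 2 fell and 0 rose, 40% of a class too small to set against the 22.5% of all genes called. SEMA3A, the founding axon repellent of the class, read 5.69, 6.07 and 5.50 on gankyrin shRNA arrays, against 7.01, 7.10 and 6.82 on control arrays. The groups were well separated, and SEMA3A fell 2.33-fold (-1.22 ± 0.14 SE, limma adjusted p = 0.000369). Its dimmer probe set, below the low end of the scale in both groups, was at -1.13 ± 0.28 and fell as well (adjusted p = 0.0449 in limma over all probe sets). SEMA3C, which signals through both neuropilins, read 9.15, 9.41 and 9.36 on gankyrin shRNA arrays, against 9.75, 9.88 and 9.85 on control arrays. On this probe set all gankyrin shRNA arrays were lower, and SEMA3C fell by 0.52 ± 0.07 on the log2 scale (limma adjusted p = 0.00125). The other SEMA3C probe set read 6.79, 7.14 and 6.89 on gankyrin shRNA arrays, against 7.19, 7.54 and 5.56 on control arrays, with overlapping groups and a low control replicate 3. With both probe sets averaged SEMA3C did not pass (-0.17, limma adjusted p = 0.646). SEMA3E, SEMA3F and SEMA3G had log2 fold changes of -0.24, 0.04 and -0.12 and did not pass. Without control replicate 1 SEMA3E passed as lower (-0.42, limma adjusted p = 0.0353). Its mean over the 6 arrays was 4.03, below the low end of the scale.

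Plexins are the signalling receptors of semaphorins and act on Ras-like GTPases through their intracellular domain. Of 8 measured plexins 3 fell and 0 rose, 37.5% called against 22.5% of all genes, in a family too small to compare the shares. These were the 3 measured A-type plexins, which pair with neuropilins. PLXNA1 read 7.90, 7.92 and 7.97 on gankyrin shRNA arrays, against 8.43, 8.38 and 8.67 on control arrays. The groups did not overlap, and PLXNA1 fell by 0.56 ± 0.08 (limma adjusted p = 0.00156). Its other probe sets were at -0.03 ± 0.10 and -0.23 ± 0.17 and did not pass, and its call was lost when probe sets ending in _s_at or _x_at were avoided (adjusted p = 0.847). PLXNA2 read 7.58, 7.62 and 7.67 on gankyrin shRNA arrays, against 7.92, 7.90 and 8.03 on control arrays, a fall of 0.33 ± 0.07 (limma adjusted p = 0.0104). PLXNA3 read 5.75, 5.49 and 5.51 on gankyrin shRNA arrays, against 5.93, 5.97 and 6.26 on control arrays, a fall of 0.47 ± 0.12 (limma adjusted p = 0.0181). Both were lower on every gankyrin shRNA array. The PLXNA2 call was lost without gankyrin shRNA replicate 1 (0.0564) and with its probe sets averaged (-0.15, adjusted p = 0.148), and the PLXNA3 call without gankyrin shRNA replicate 2 (0.0816) or 3 (0.0807). The B-type plexins, with PLXNC1 and PLXND1, had log2 fold changes of -0.17 to 0.00 and did not pass. PLXNB2, the receptor of SEMA4C, averaged 8.70 ± 0.06 on gankyrin shRNA and 8.80 ± 0.09 on control arrays (SD, n = 3 each). PLXNB1, the receptor of SEMA4D, was at -0.12 ± 0.10 SE with all arrays and passed as lower without control replicate 3 (-0.23, limma adjusted p = 0.0217). Its dimmer probe set went the other way with all arrays, at 0.38 ± 0.19 SE, and did not pass (limma adjusted p = 0.240 over all probe sets).

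Of 13 measured membrane semaphorins of classes 4 to 7, 3 fell and 0 rose, with a median log2 fold change of 0.03. That is 23.1% called, all falling, against 22.5% called and 14.3% falling among all genes. The 3 belong to class 4, transmembrane ligands of plexins. SEMA4B read 9.17, 9.23 and 9.02 on gankyrin shRNA arrays, against 9.37, 9.39 and 9.68 on control arrays, a fall of 0.34 ± 0.09 (limma adjusted p = 0.0240). SEMA4C, a ligand of plexin-B2, read 7.97, 7.88 and 7.86 on gankyrin shRNA arrays, against 8.27, 8.12 and 8.34 on control arrays, a fall of 0.34 ± 0.08 (limma adjusted p = 0.0125). SEMA4D, a ligand of plexin-B1, read 5.84, 5.86 and 6.00 on gankyrin shRNA arrays, against 6.09, 6.22 and 6.59 on control arrays, a fall of 0.40 ± 0.13 (limma adjusted p = 0.0481). In these genes each gankyrin shRNA array was below each control array, and control replicate 3 was the highest in all 3. These calls were lost when some single arrays were left out and, for SEMA4B and SEMA4D, under other processing. With 1 array left out, SEMA4B was at -0.395 to -0.24, SEMA4C at -0.402 to -0.292 and SEMA4D at -0.505 to -0.255. Calls over all genes also dropped without a gankyrin shRNA array, from 3189 to between 1732 and 1743. SEMA4B did not pass without gankyrin shRNA replicate 1 (0.0697) or 3 (0.110), nor SEMA4C without replicate 2 (0.0591) or 3 (0.0626). SEMA4D did not pass without any one gankyrin shRNA array or without control replicate 2 (limma adjusted p = 0.0723 to 0.153), and without control replicate 3 it passed at a smaller change of -0.26. SEMA4D lost its call under 10 of the 16 alternative settings, among them quantile normalization (0.0723), no filter on mean signal (0.0581) and no intensity trend (0.0645), where SEMA4B did not pass either (0.0563). SEMA6A, a transmembrane ligand of A-type plexins, read 4.97, 5.05 and 4.92 on gankyrin shRNA arrays, against 4.66, 4.74 and 4.72 on control arrays. SEMA6A was higher on every gankyrin shRNA array but did not pass (0.27 ± 0.09 SE, limma adjusted p = 0.0566), and it passed as higher with no intensity trend in the variance (adjusted p = 0.0292). SEMA5B, a transmembrane semaphorin with thrombospondin repeats, averaged 7.43 ± 0.10 on gankyrin shRNA and 7.40 ± 0.25 on control arrays (SD, n = 3 each).

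**Figure D2:**
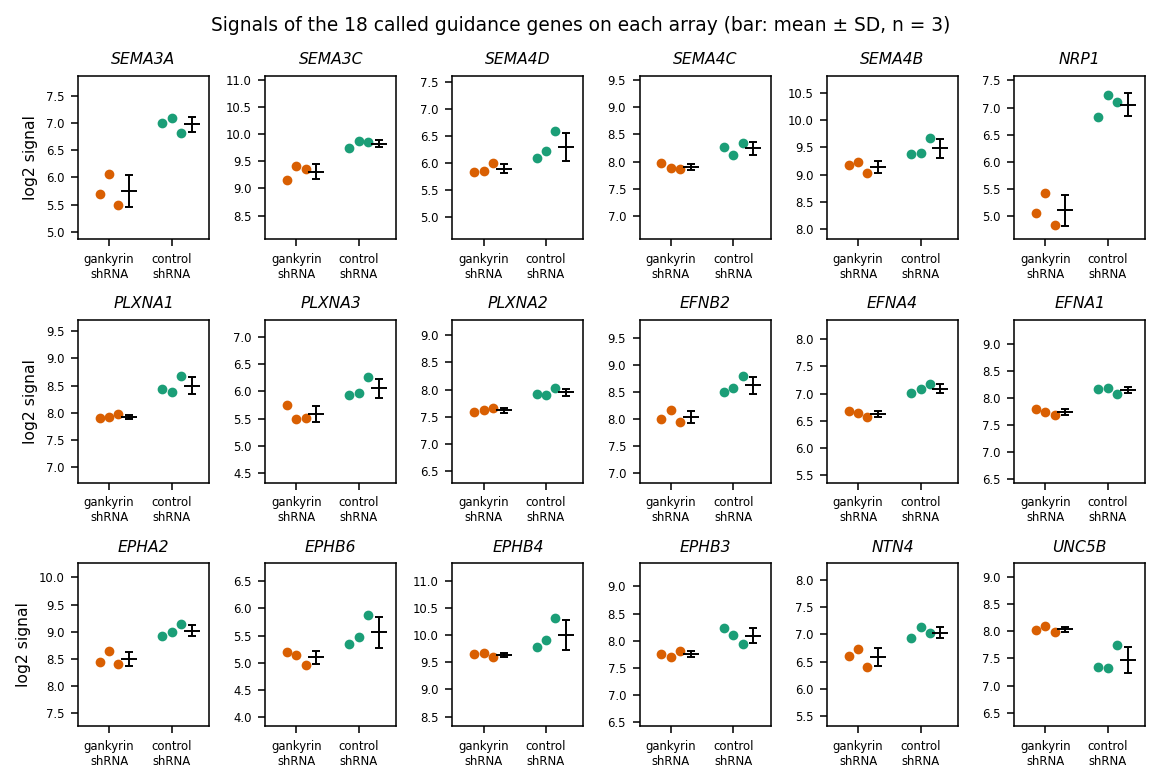
Log2 signal on each array (vertical axis, 3 log2 units in every panel) of the 18 called guidance genes, gankyrin shRNA at left in orange and control shRNA at right in green, with the mean and SD of 3 arrays. NRP1 and SEMA3A show the widest gaps, the gankyrin shRNA arrays are higher for UNC5B alone, and in EPHB4 and SEMA4D control replicate 3, the last green point, lies above the other control arrays.

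Ephrins, the membrane-held ligands, had 8 measured members, of which 3 fell and 0 rose. That is 37.5% called against 22.5% of all genes, again in a small family. EFNB2, a transmembrane ligand of EphB receptors, read 8.01, 8.16 and 7.94 on gankyrin shRNA arrays, against 8.50, 8.57 and 8.79 on control arrays, and fell by 0.58 ± 0.09 (limma adjusted p = 0.00192). Its dimmer probe set was at -0.11 ± 0.10 and did not pass. EFNA1, the lipid-anchored ligand of EPHA2, read 7.79, 7.74 and 7.68 on gankyrin shRNA arrays, against 8.16, 8.18 and 8.08 on control arrays, a fall of 0.40 ± 0.07 (limma adjusted p = 0.00311). EFNA4, another lipid-anchored ligand, read 6.67, 6.64 and 6.57 on gankyrin shRNA arrays, against 7.01, 7.08 and 7.18 on control arrays, a fall of 0.46 ± 0.08 (limma adjusted p = 0.00354). In these 3 genes each gankyrin shRNA array was below each control array. EFNA3 read 6.09, 5.87 and 5.97 on gankyrin shRNA arrays, against 6.12, 6.24 and 6.23 on control arrays, lower without overlap, but did not pass (-0.22 ± 0.09 SE, limma adjusted p = 0.120). EFNA5 read 6.89, 6.78 and 6.79 on gankyrin shRNA arrays, against 7.09, 7.08 and 5.76 on control arrays, with control replicate 3 far below the other control arrays. EFNA5 was at 0.18 ± 0.29 SE with all arrays (limma adjusted p = 0.710) and at -0.27 without that array, where it passed as lower (0.0121). Its other probe sets were at -0.21 ± 0.15 and -0.46 ± 0.20 with all arrays and did not pass. EFNA2 was at 0.16 ± 0.15 SE with all arrays (limma adjusted p = 0.491) and at 0.35 without that array, where it passed as higher (0.00364).

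EFNA4, EFNA3 and EFNA1 follow each other on chromosome 1 in the RefSeq gene order of GRCh38.p14, apart from the EFNA4-EFNA3 readthrough gene, a feature looked at after their values were seen. On the EFNA4 side stands ADAM15, a metalloprotease gene, which averaged 7.90 ± 0.03 on gankyrin shRNA and 7.91 ± 0.09 on control arrays (SD, n = 3 each). ADAM15 did not pass, at -0.01 ± 0.07 SE (limma adjusted p = 0.963). On the EFNA1 side stands SLC50A1, a sugar transporter gene, at -0.16 ± 0.07 SE, which did not pass either (limma adjusted p = 0.133).

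Eph receptors had 9 measured members, of which 4 fell and 0 rose. That is 44.4% called against 22.5% of all genes, in a family too small to compare the shares. EPHA2, a receptor tyrosine kinase of epithelia, read 8.45, 8.64 and 8.41 on gankyrin shRNA arrays, against 8.93, 9.00 and 9.14 on control arrays. EPHA2 was lower on every gankyrin shRNA array and fell by 0.52 ± 0.08 (limma adjusted p = 0.00191), the single call among 6 EphA receptors. EPHA1 averaged 7.92 ± 0.06 on gankyrin shRNA and 8.06 ± 0.22 on control arrays (SD, n = 3 each) and did not pass. All 3 measured EphB receptors fell. EPHB3, a receptor known from the crypt base, read 7.75, 7.71 and 7.81 on gankyrin shRNA arrays, against 8.24, 8.10 and 7.95 on control arrays, a fall of 0.34 ± 0.09 (limma adjusted p = 0.0182). EPHB4, the main receptor of EFNB2, read 9.65, 9.67 and 9.60 on gankyrin shRNA arrays, against 9.78, 9.90 and 10.31 on control arrays, a fall of 0.36 ± 0.11 (limma adjusted p = 0.0463). EPHB6, whose kinase domain is inactive, read 5.20, 5.14 and 4.96 on gankyrin shRNA arrays, against 5.34, 5.47 and 5.88 on control arrays, a fall of 0.46 ± 0.14 (limma adjusted p = 0.0398). The other EPHB3 probe set was at -0.19 ± 0.19 and did not pass (limma adjusted p = 0.542 over all probe sets), nor did EPHB3 with both averaged (-0.27, adjusted p = 0.181). In EPHB4 and EPHB6 control replicate 3 was the highest array, and without it they passed at smaller changes of -0.20 and -0.30. Each of the 3 EphB calls was lost without gankyrin shRNA replicate 1, 2 or 3 and without control replicate 2. The limma adjusted p-values were then 0.0511 to 0.0816 for EPHB3, 0.0578 to 0.147 for EPHB4 and 0.0604 to 0.151 for EPHB6. With no intensity trend EPHB4 (0.0932) and EPHB6 (0.0556) did not pass either, and in all EPHB4 lost its call under 9 and EPHB6 under 8 of the 16 alternative settings.

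The falls of EFNA1, its receptor EPHA2, EFNB2 and EFNA4 kept their call under all 16 alternative settings. EFNA1, EFNA4 and EPHA2 had a single probe set past the minimum, so the settings on probe sets could not change their log2 fold changes. The sequences before the starts of EFNA1, EPHA2 and EFNB2, but not EFNA4, are shown because of these kept calls. They are RefSeq sequences of GRCh38.p14, the 250 bases before the start, written 5′ to 3′ on the gene's strand: chr1:155127626-155127875, plus strand, for EFNA1, chr1:16156070-16156319, minus strand, for EPHA2, and chr13:106535663-106535912, minus strand, for EFNB2. Capitals mark matches on either strand to the motifs searched: the GC box GGGCGG, the AP-1 site TGANTCA, the TEAD site GGAATG, the E-box CACGTG and the cyclic AMP response element TGACGTCA. Neighbouring matches may share a base.
EFNA1: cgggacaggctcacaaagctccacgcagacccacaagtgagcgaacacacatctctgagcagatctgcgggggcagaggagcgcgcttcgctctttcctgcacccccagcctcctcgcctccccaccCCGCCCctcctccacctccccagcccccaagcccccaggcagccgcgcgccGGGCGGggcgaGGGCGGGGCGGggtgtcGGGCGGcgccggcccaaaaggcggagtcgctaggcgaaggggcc
EPHA2: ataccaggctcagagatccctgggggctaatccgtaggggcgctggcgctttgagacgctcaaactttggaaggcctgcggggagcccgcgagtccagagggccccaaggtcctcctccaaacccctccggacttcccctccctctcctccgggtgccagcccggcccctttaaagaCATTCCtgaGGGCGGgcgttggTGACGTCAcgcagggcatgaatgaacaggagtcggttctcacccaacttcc
EFNB2: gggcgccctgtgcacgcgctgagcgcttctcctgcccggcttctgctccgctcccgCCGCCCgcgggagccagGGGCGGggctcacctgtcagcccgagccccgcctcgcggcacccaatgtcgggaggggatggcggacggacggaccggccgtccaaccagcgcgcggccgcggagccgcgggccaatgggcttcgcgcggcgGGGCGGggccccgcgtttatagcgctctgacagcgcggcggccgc
EFNA1 holds 5 GC boxes and EFNB2 holds 3, with none of the other motifs in this window. EPHA2 holds 1 GC box, 1 TEAD site and 1 cyclic AMP response element. Of the 55 measured guidance genes 48 had an entry in the promoter table, and NRP1, SEMA3A and UNC5B were not among them. A GC box was present in 15 of 15 fallen genes with an entry and in 46 of the 48 guidance genes, against 70.6% of 11364 tested genes and 46.2% of all 27305 genes of the table. Median GC content was 71.4% in the fallen genes, 67.9% in the guidance genes and 64.0% in the tested genes. An AP-1 site was found in 0 of the 15 fallen genes and in 6.46% of tested genes, and a TEAD site in 1 of the 15 and 13.1% of tested genes. An E-box was found in 1 of the 15 and 10.7% of tested genes, and the cyclic AMP response element in 2 of the 15 and 3.21% of tested genes. These matches describe letters in a window and were not tested as sites.

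Netrins are laminin-like secreted cues, and UNC5 receptors bind them. NTN4, a netrin of basement membranes, read 6.61, 6.73 and 6.40 on gankyrin shRNA arrays, against 6.93, 7.14 and 7.03 on control arrays. NTN4 was lower on every gankyrin shRNA array and fell by 0.45 ± 0.10 (limma adjusted p = 0.0122), a call lost without gankyrin shRNA replicate 3 (0.0584). UNC5B, a netrin receptor with a death domain, was the one guidance gene that rose. Its signal was 8.02, 8.09 and 7.99 on gankyrin shRNA arrays, against 7.34, 7.32 and 7.74 on control arrays. All gankyrin shRNA arrays were above all control arrays, the nearest being control replicate 3. UNC5B rose 1.48-fold (0.57 ± 0.11 SE on the log2 scale, limma adjusted p = 0.00544). Its other probe sets were at 0.34 ± 0.09 and 0.42 ± 0.11 and did not pass (limma adjusted p = 0.0574 and 0.0575 over all probe sets). UNC5A, another netrin receptor, at 0.17 ± 0.10 SE, and UNC5CL, at -0.14 ± 0.14 SE, did not pass. UNC50 averaged 8.72 ± 0.07 on gankyrin shRNA and 8.73 ± 0.03 on control arrays (SD, n = 3 each).

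Of 5 measured slits and robos 0 passed in limma, also at an unadjusted p under 0.05, and their log2 fold changes ran from -0.15 to 0.10. A family of 5 is too small to set against the 22.5% of all genes called. SLIT1, a secreted ligand of robo receptors, read 5.67, 5.58 and 5.61 on gankyrin shRNA arrays, against 5.78, 5.74 and 5.79 on control arrays. SLIT1 was lower on every gankyrin shRNA array but did not pass (-0.15 ± 0.08 SE, limma adjusted p = 0.243). Only SLIT1 and ROBO3 of these genes lay above the low end of the scale.

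Tested one by one, with p-values adjusted over all probe sets past the minimum, the brightest probe sets of 13 of the 18 called genes passed. Those of EPHB4, EPHB6, PLXNA3, SEMA4B and SEMA4D did not, at limma adjusted p-values of 0.0531 to 0.113. Of the dimmer probe sets of called genes, those of NRP1 and SEMA3A passed. That of SEMA3A was below the low end of the scale in both groups, and that of NRP1 on the gankyrin shRNA arrays, so the size of these differences is uncertain.

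**Figure D3:**
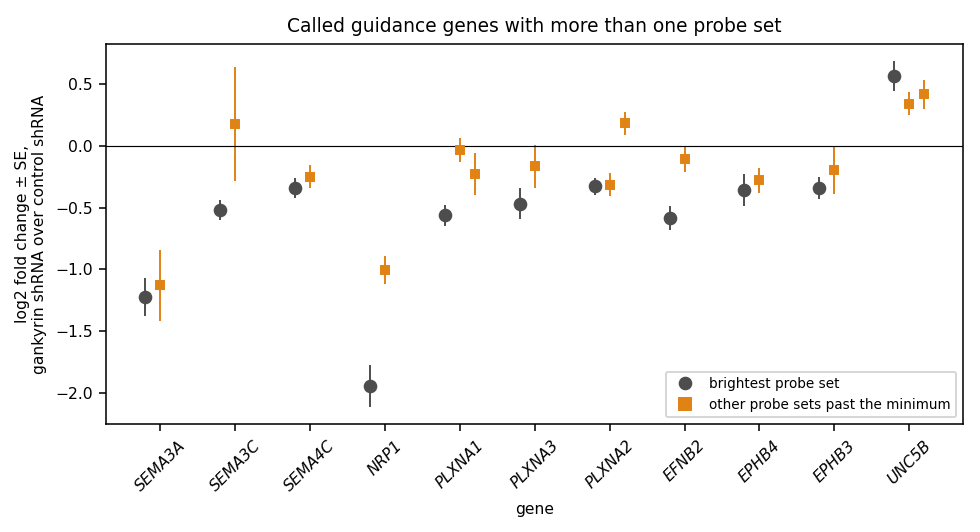
Log2 fold change with SE (vertical axis, gankyrin shRNA over control shRNA) of each probe set past the minimum, for the called guidance genes that had several (horizontal axis). Dark circles are the brightest probe sets and orange squares the others. All sets of NRP1 and SEMA3A are well below 0, all of UNC5B are above 0, and SEMA3C and PLXNA2 each have 1 square above 0.

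Genes that work with these ligands and receptors were read from lists of their partners. Of 96 listed genes 78 were measured, of which 19 fell and 3 rose, with a median log2 fold change of -0.09, against -0.02 for all genes. That is 28.2% called in either direction, a share near the 22.5% of all genes. It was also near the 27.4% of genes above the low end of the scale. The partner calls leaned further to falls, since among all genes 14.3% fell and 8.13% rose. Among genes above the low end 17.4% fell and 9.91% rose. MICAL2, MRAS, RGMB, RRAS, VAV3 and VEGFB, 6 of the 22 called partner genes, kept their call under all 16 alternative settings. CBL and VAV2 lost it only with the probe sets of a gene averaged, and the other 14 when 1 or another array was left out. With averaged probe sets ERBB2, MET, SRC and VEGFA turned to positive values that did not pass. Without gankyrin shRNA replicate 1, 2 or 3, 12, 12 and 9 of the 78 passed.

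Among 24 measured genes of semaphorin, plexin and neuropilin signalling 7 fell and 1 rose, 33.3% called against 22.5% of all genes. Of the 24, 19 lay above the low end of the scale, where 27.4% of all genes were called. MRAS and RRAS, Ras-like proteins of the kind on which plexins act, fell by 0.95 ± 0.18 and 0.46 ± 0.10 (limma adjusted p = 0.00465 and 0.00835). MICAL2, an enzyme that oxidises actin, averaged 10.04 ± 0.05 on gankyrin shRNA and 9.37 ± 0.12 on control arrays (SD, n = 3 each) and rose by 0.67 ± 0.07 (limma adjusted p = 0.000180). MICALL2, a junctional relative of the MICAL enzymes, fell by 0.42. The receptor kinases MST1R, ERBB2 and MET, which can associate with B-type plexins, fell by 0.41, 0.37 and 0.16, and FARP1, a guanine nucleotide exchange factor family member, by 0.34. Of 5 measured vascular endothelial growth factors and receptors 2 fell and 0 rose, 40% of a list too short to set against 22.5%. VEGFA, a ligand of neuropilin-1, averaged 11.38 ± 0.06 on gankyrin shRNA and 11.55 ± 0.06 on control arrays, and fell by 0.17 ± 0.05 (SD, n = 3 each; limma adjusted p = 0.0265). VEGFB averaged 5.87 ± 0.07 on gankyrin shRNA and 6.32 ± 0.09 on control arrays, and fell by 0.45 ± 0.09 (SD, n = 3 each; limma adjusted p = 0.00612).

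Among 24 measured genes of Eph signalling 6 fell and 1 rose, 29.2% called against 22.5% of all genes. Of the 24, 23 lay above the low end of the scale, where 27.4% of all genes were called, a share near theirs. The exchange factors VAV3 and VAV2, which act downstream of Eph receptors, moved in opposite directions. VAV3 averaged 7.20 ± 0.02 on gankyrin shRNA and 5.99 ± 0.11 on control arrays (SD, n = 3 each) and rose by 1.21 ± 0.09 (limma adjusted p = 2.01e-05). VAV2 averaged 6.32 ± 0.07 on gankyrin shRNA and 6.80 ± 0.13 on control arrays (SD, n = 3 each) and fell by 0.48 ± 0.09 (limma adjusted p = 0.00575). The ubiquitin ligase gene CBL fell by 0.45, the kinase genes SRC, ABL1 and ABL2 by 0.43, 0.40 and 0.32, and ELMO2, an adaptor of Rac activation, by 0.31. Among 25 measured genes of slit, robo, netrin and DCC signalling 4 fell and 1 rose, 20% and so no more than the 22.5% of all genes. RGMB, a ligand of the DCC relative neogenin, fell by 0.53 ± 0.10 (limma adjusted p = 0.00527). ARHGAP39, a GTPase-activating protein that binds robo, fell by 0.46, the kinase gene PAK2 by 0.32 and the heparan sulfate carrier GPC1 by 0.32. FLRT1, of a transmembrane family that binds UNC5 receptors, rose by 0.49 ± 0.13 (limma adjusted p = 0.0218), with both group means below the low end of the scale.

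**Figure D4:**
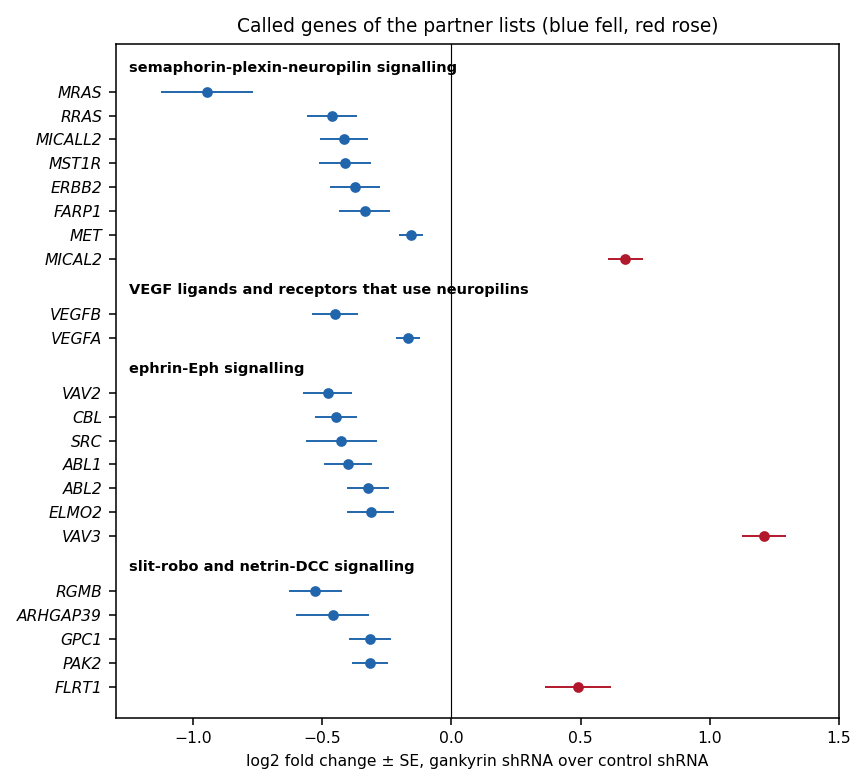
Log2 fold change (gankyrin shRNA over control shRNA, horizontal axis, with SE, n = 3 arrays per group) of the 22 called partner genes, by list. VAV3 at 1.21, MICAL2 at 0.67 and FLRT1 at 0.49 are the red genes that rose, and the 19 blue genes that fell run from -0.95 for MRAS to -0.16 for MET.

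Markers of other cell types that use guidance genes were read beside these results, each list with the sum of its linear signals per array. Of 9 endothelial markers 3 were measured and 1 fell, with sums of 294 to 320 on gankyrin shRNA and 396 to 513 on control arrays. The marker that fell was ESAM, an endothelial adhesion molecule, which made up most of these sums. ESAM averaged 7.91 ± 0.10 on gankyrin shRNA and 8.58 ± 0.22 on control arrays (SD, n = 3 each). PECAM1 averaged 5.05 ± 0.11 on gankyrin shRNA and 5.11 ± 0.07 on control arrays (SD, n = 3 each), and CDH5, CLDN5, EMCN, KDR, TIE1 and VWF were under the minimum. Of 8 neuronal markers 6 were measured and 2 fell, TUBB3 and MAP2, with sums of 816 to 870 on gankyrin shRNA and 1047 to 1184 on control arrays. TUBB3, at 9.50 ± 0.05 on gankyrin shRNA and 9.97 ± 0.11 on control arrays (SD, n = 3 each), made up most of these sums. SNAP25, ELAVL3, RBFOX3 and GAP43 lay under the low end of the scale. Of 8 fibroblast markers 4 were measured, with sums of 213 to 226 on gankyrin shRNA and 168 to 225 on control arrays, and of 8 leukocyte markers 4, with sums of 130 to 147 on gankyrin shRNA and 113 to 131 on control arrays. Of these 8 measured markers 0 passed in limma, and 1, ITGAM, had an unadjusted p under 0.05. Called were 33.3% of measured endothelial and of measured neuronal markers, in lists too short to set against the 22.5% of all genes. The part of any marker list in the results was not tested.

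**Figure D5:**
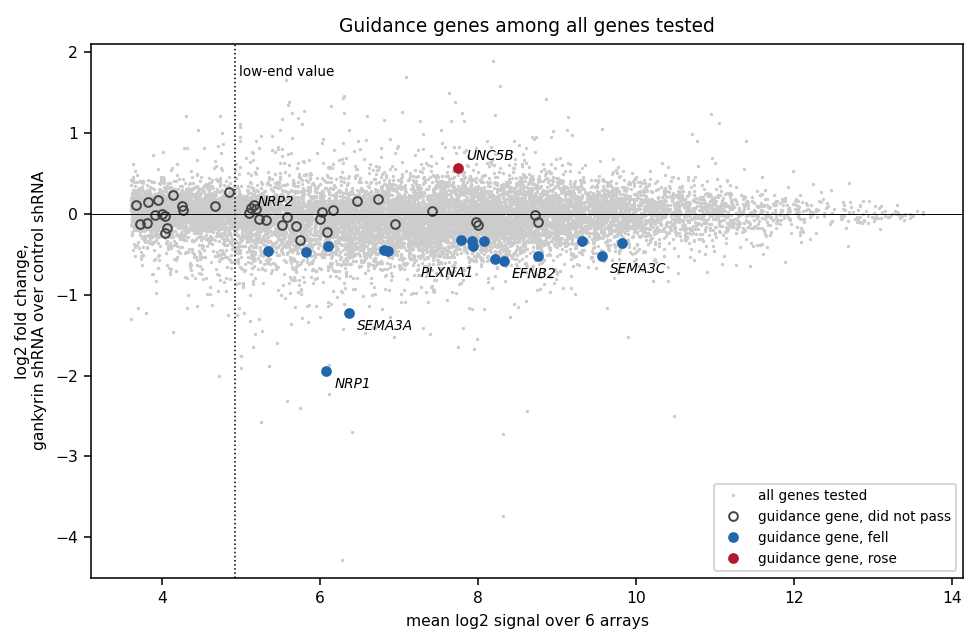
Log2 fold change (vertical axis, gankyrin shRNA over control shRNA) against mean log2 signal over the 6 arrays for all 14199 genes (grey dots), with the 55 guidance genes as circles. The dotted line is the low end of the scale at 4.92, and all 18 called guidance genes lie to its right.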

How the data were processed

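RNA of 6 SW480 samples was measured on one-colour Affymetrix arrays. The values used are log2 signals per probe set as the authors deposited them, with array medians of 4.20 to 4.25 and a range of 1.29 to 13.68. Over the genes tested, medians were less level. They were 6.82 to 6.84 on gankyrin shRNA arrays and 6.87, 6.90 and 7.03 on control replicates 1, 2 and 3. MAS5 is named in the submitters' processing notes. Not given in the sources used here are its role and version, the summary method and the build. Detection calls were not used. Of 54675 probe sets, 62 controls were left out, and 41091 were paired with one gene by the platform annotation, with symbols brought to RefSeq (GRCh38.p14) through Entrez identifiers. For each gene the brightest of these with a mean over the 6 arrays above 3.6 was kept, which left 14199 genes. No further normalization was applied. Groups were fitted in limma 3.58.1 (R 4.3.3, lmFit, then eBayes with its trend option). The p-values are two-sided, adjusted by Benjamini-Hochberg across these genes, and called under 0.05. The low end of the scale comes from 135 probe sets of olfactory receptor genes. The fit was tested on simulated data. With 3 arrays per group, the number of arrays limits the precision.

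Members and lists were chosen with earlier results of these data known. Named were PSMD10 and NFIL3, each called guidance gene, the uncalled member of highest mean in each family, the genes nearest to the minimum, each called partner gene and up to 3 markers per list. Other uncalled guidance genes, further markers, ADAM15 and SLC50A1 were named after their values were seen. The 16 alternative settings were other scalings, filters, probe set rules and variance models, the replicate number as a block and leaving out each array, and 2 more were added after seeing the data.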

Additional observations from a re-analysis of the deposited data

How the results depend on the processing

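PSMD10 kept its direction and call under every alternative run, at -3.81 to -2.95 on the log2 scale. Of the 18 called guidance genes, EFNA1, EFNA4, EFNB2, EPHA2, NRP1, SEMA3A and UNC5B kept their call under all 16 alternative settings, and 0 of the 18 changed sign. EFNA1, EFNA4 and EPHA2 had a single probe set past the minimum, so averaging or switching probe sets could not change their log2 fold changes. PLXNA1 and SEMA3C, with further probe sets, lost their call only under such a setting. With a single array left out, 10 to 21 guidance genes were called, 9 to 19 fell and 1 to 2 rose. With the probe sets of a gene averaged 11 fell. With no intensity trend 2 rose, and with each array centred on the median of the genes tested, chosen after seeing the data, 3 rose (UNC5B, SEMA6A and SEMA6D), while EPHB3 and SEMA4D no longer passed. Partner genes called numbered 22, with 9 to 27 when a single array was left out, 11 with probe sets averaged and 14 with each probe set as its own feature, also chosen after seeing the data. Over all genes, 3189 were called, against 1734, 1743 and 1732 without gankyrin shRNA replicate 1, 2 or 3, 3089, 2541 and 4161 without control replicate 1, 2 or 3, and 2031 with each probe set as its own feature. The cause of these shifts was not tested. Deviations from the group mean correlated little between same-numbered arrays (0.02, 0.11 and -0.01). With so few arrays, these values cannot tell whether same-numbered arrays shared a culture or a day. With the replicate number as a block 17 guidance genes were called (1 rose and 16 fell), EPHB6 no longer passing, 21 partner genes were called and PSMD10 was at -3.74. Of 15 guidance genes at or below the low end of the scale 0 were called in limma, against 6.34% of all genes there. These genes are too few to tell the shares apart. SEMA6A, 1 of the 15, had an unadjusted p under 0.05 in limma.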
